A study of Mus musculus with 8 samples.

Results

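A set of 660 windows of 1000 bp was more methylated in obstructed mouse kidney than in both sham-operated kidneys. It made up 1.00% of the 65728 measured windows on the 19 autosomes. After ischemia these windows read less than 5 points above the higher sham, with no limit on how far below it. They were chosen by their measured levels. A window was kept when the lower of the 2 libraries of unilateral ureteral obstruction (UUO) lay at least 8 percentage points above the higher of the 2 sham libraries, and when both ischemia libraries lay less than 5 points above that same higher sham. The level of a window is the percentage of methylated reads among all reads over its CpG positions. A window entered with at least 3 CpG positions of at least 10 reads in each of the 8 libraries and at least 100 reads per library in all. The levels of UUO, both shams and both ischemia libraries therefore fixed the members, and those levels are given below as a description that supports nothing further. The 2 libraries from obstructed kidneys given 5AZA were not used in the choice.

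All libraries came from wild type male C57BL/6J mice, from DNA of the renal cortex together with the outer medulla, and were made by reduced representation bisulfite sequencing (RRBS), which reads short MspI fragments after bisulfite conversion. In UUO the left ureter was tied and cut, and kidneys were taken at 7 days, with 2 libraries. UUO 5AZA, also at 7 days and with 2 libraries, added intraperitoneal 5AZA at 1 mg per kg per day in saline. The deposited names of the 2 UUO libraries without 5AZA hold the word saline, but the labels do not say whether these mice received it. The ischemia libraries came from mice with both renal pedicles clamped for 25 minutes, followed by 1 week or 1 month of reperfusion, with 1 library each. The UUO sham and the ischemia sham had the surgery without ligation or clamping, with 1 library each. The age of the mice is not given in the sources used here, and whether the libraries of 1 group were separate animals is not stated in the labels, so the spread between them may be technical. The 4 single libraries have no replicate check.

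CpG methylation is a covalent mark on cytosine that DNA methyltransferases copy after replication and can add anew. It is usually dense across most of the genome and sparse at CpG-rich promoters, and regions of intermediate level often reflect cells or alleles that differ. The drug abbreviated 5AZA is commonly 5-azacytidine, a nucleoside that traps DNA methyltransferases once built into nucleic acid. Ureteral obstruction is a standard model of tubulointerstitial fibrosis, in which tubules atrophy while fibroblasts and leukocytes accumulate. In bulk tissue, a changed share of cell types and a changed methylation within a cell type cannot be told apart.

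The libraries held 56892250 to 84888386 reads over autosomal CpG positions. In the 660 windows the median number of reads per window ranged from 273 to 400.5 by library, and the shallowest library of a window had a median of 200 reads. Exact binomial intervals at 95% cover counting error only, since PCR copies are not told apart and a read over several CpGs is counted at each.

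In the chosen windows, the obstructed kidneys without 5AZA stood apart from the other 6 libraries. The choice itself set this for the shams and the ischemia libraries, while the 5AZA pair, whose kidneys were obstructed as well, was not used in it. The mean level over the 660 windows was 68.7% in UUO 1 and 68.2% in UUO 2. It was 55.6% in the UUO sham and 53.9% in the ischemia sham. The ischemia libraries averaged 54.8% at 1 week and 57.7% at 1 month. The 5AZA libraries, outside the choice, averaged 57.6% and 56.9%. Both 5AZA means therefore lay near the 1-month ischemia library, about 1 to 4 points above the shams and far below UUO. Over all 65728 windows the same 8 means were much closer together, from 59.0% in UUO 5AZA 2 to 62.0% in UUO 2.

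**Figure D1:**
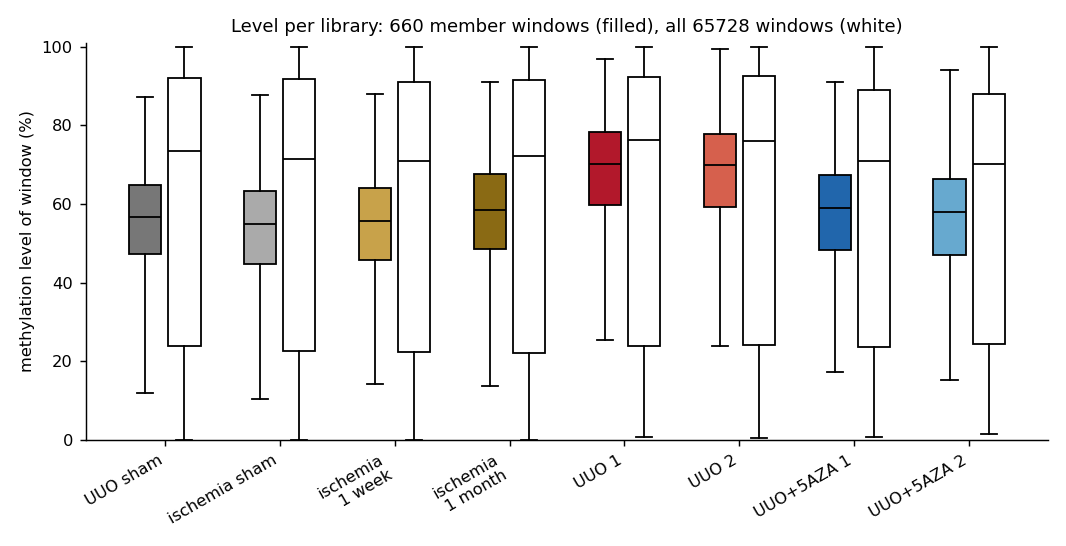
Methylation level per window in percent (vertical axis) for each of the 8 libraries, with filled boxes for the 660 chosen windows and white boxes for all 65728 windows (box, quartiles with the median; whiskers, lowest and highest window). The filled UUO boxes have medians of 70.2% and 69.9%, and the other 6 filled boxes have medians between 54.8% and 58.9%.

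The gain itself was set by the rule and was mostly small. From the higher sham to the lower UUO library the median was 9.67 points, and the highest was 20.2 points. In 276 of the 660 windows the 95% intervals of both UUO libraries lay above those of both shams, so in the remaining windows the reads alone leave the levels overlapping. The window nearest inside the gain limit, chr2:28836001-28837000, gained 8.003 points (levels of 70.3% and 74.3% in UUO against 61.2% and 62.3% in the shams). The next inside, chr8:90185001-90186000, gained 8.007 points, while the nearest outside, chr4:154115001-154116000 and chr2:84615001-84616000, gained 7.996 and 7.976 points. At the ischemia limit, chr8:128039001-128040000 and chr8:27824001-27825000 lay inside at 4.999 and 4.990 points over the higher sham. The windows chr2:172786001-172787000 and chr4:129683001-129684000 lay outside at 5.02 points each. Windows on either side of the limits thus differed by a few hundredths of a point.

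The limit on ischemia decided much of the membership. Without it, 1123 windows passed the gain limit, of which 463 were removed by ischemia levels of 5 points or more above the higher sham. In those 463 the 1-month library averaged 65.2%, the 1-week library 59.4% and the ischemia sham 55.4%. Even among the 660 kept windows, ischemia at 1 month was above the ischemia sham by 3.81 points on average, against 0.04 points over all windows. It lay above the higher sham in 465 members (70.5%), against a background of 23.5% of all windows. At 1 week the level was 0.93 points above the ischemia sham, and 219 members (33.2%) exceeded the higher sham, against 16.7% of all windows. Both ischemia libraries lay below the lower sham in 29 members (4.39%), against 27.6% of all windows. The description "only after obstruction" thus rests on the 5-point limit, and the 1-month library leaned the same way as UUO. Since the rule used these libraries and low sham readings favour membership, nothing further is read from these counts.

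The opposite pattern was rarer. The same rule turned around, with both UUO libraries at least 8 points below the lower sham, found 94 windows, of which 23 also had ischemia libraries less than 5 points below it. With the 8 points alone and no limit on the other injury, 1123 windows were higher than the shams in the UUO pair. The 5AZA pair had 33 higher and 376 lower, and the ischemia pair 27 higher and 151 lower. With the other injury under 5 points, these were 9 and 192 for 5AZA, and 2 and 46 for ischemia. Over all windows, the mean difference from the UUO sham was 0.86 points in UUO and -1.95 points in 5AZA. The UUO pair was the only one of the 3 pairs with more windows past 8 points above the shams than below. The ischemia pair joins 1 library at 1 week with 1 at 1 month, so the pairs are not alike. The rule used the UUO, sham and ischemia levels, and nothing further is read from these counts.

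To describe the gain in libraries that did not choose the windows, the rule was repeated with 1 UUO library and 1 sham, and the unused UUO library was set against the unused sham. With UUO 1 and the UUO sham choosing, 2379 windows were kept, and UUO 2 was 6.94 points above the ischemia sham in them, against 1.98 points over all windows. With UUO 1 and the ischemia sham choosing, 2777 windows were kept, and the unused difference was 4.85 points against 0.93. With UUO 2 choosing, it was 8.34 points against 1.83 in 1783 windows (UUO sham in the rule) and 3.84 points against 0.78 in 2552 windows (ischemia sham in the rule). All 4 unused differences were above 0 and above that of all windows, and 3 of the 4 were below the 8 points required of the choosing libraries. The share of windows with an unused difference of at least 8 points was 25.5% to 49.4%, against 5.11% to 9.13% of all windows.

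A like comparison at matched starting levels gave a smaller contrast. Among windows at 30 to 70% in the choosing sham, the unused difference was 4.77 to 9.54 points in chosen windows and 2.42 to 4.38 points in those not chosen. Windows of intermediate level that the rule did not keep therefore also read higher in the unused UUO library, at about 2 to 4 points. The 4 choices share libraries and windows and are not independent of each other.

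**Figure D2:**
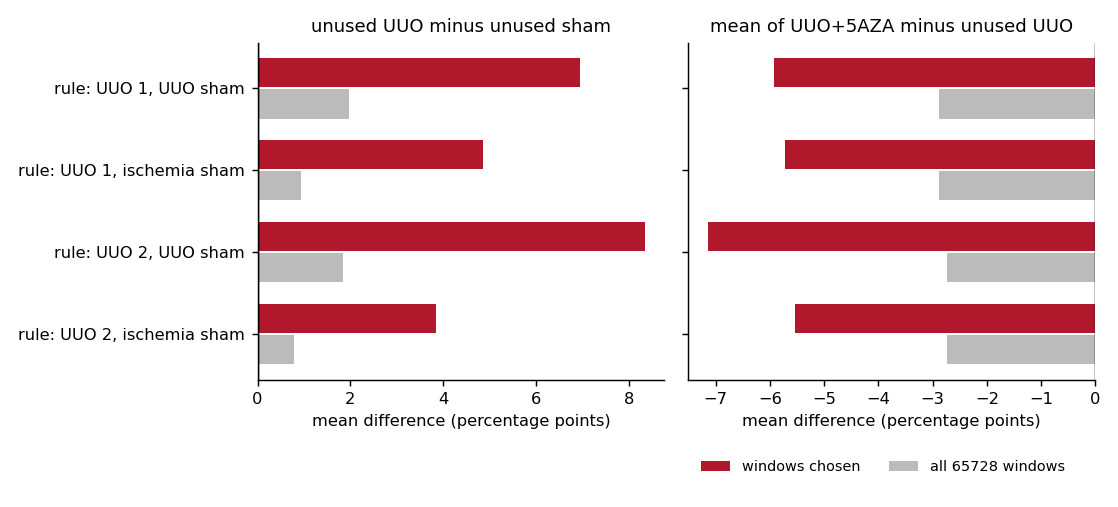
Mean difference in percentage points (horizontal axes) in libraries that did not choose the windows, for each of 4 choices of 1 UUO library and 1 sham (rows); red bars are the windows chosen and grey bars all 65728 windows. Left, unused UUO minus unused sham, 3.84 to 8.34 points in chosen windows; right, mean of both UUO 5AZA libraries minus the unused UUO library, -7.15 to -5.54 points.

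With 5AZA, the chosen windows read low compared with obstruction without 5AZA. The mean over windows was 57.3% ± 0.52 (SD, n = 2) in UUO 5AZA and 68.4% ± 0.34 (SD, n = 2) in UUO, a difference of -11.1 points, compared with -2.80 points over all windows. Both libraries with 5AZA were lower than both without it in 634 members (96.1%), against 48.6% of all windows, and the reverse order occurred in 0 members. UUO levels chose these windows for being high, so the size of this difference is partly set by the choice. With 1 UUO library left out of the rule and used as the UUO level, 5AZA minus UUO 2 was -6.39 points in 2061 windows and 5AZA minus UUO 1 was -7.61 points in 1523 windows. The unused-library difference was thus about 6 to 8 points rather than 11. Among windows at 30 to 70% in the choosing sham, with 1 UUO library and 1 sham choosing, 5AZA minus the unused UUO library was -7.68 to -6.04 points in chosen windows and -4.04 to -3.32 points in those not chosen. Windows of intermediate level outside the choice therefore also read lower with 5AZA, by more than the mean of all windows.

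Set against the shams, the 5AZA levels in the chosen windows were slightly high. They averaged 1.64 points above the UUO sham and 3.38 points above the ischemia sham, while over all windows these differences were -1.95 and -0.90 points. Both 5AZA libraries lay above the higher sham in 236 members (35.8%), against 13.3% of all windows, and below the lower sham in 41 members (6.21%), against 33.3%. In 6 members (0.909%) both were at least 8 points above the higher sham, against 0.0502% of all windows. The 5AZA mean was nearer to the sham mean than to the UUO mean in 600 members (90.9%), against 56.3% of all windows. Over all windows UUO averaged only 0.86 points above the UUO sham and 1.91 above the ischemia sham, so that share is not a like background. The rule favoured low sham and high UUO readings, so the counts against the shams are partly set by the choice and nothing further is read from them. In the windows chosen by 1 UUO library and 1 sham, 5AZA minus the unused sham was between -1.70 and 1.20 points, so its sign depended on which sham was left out.

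**Figure D3:**
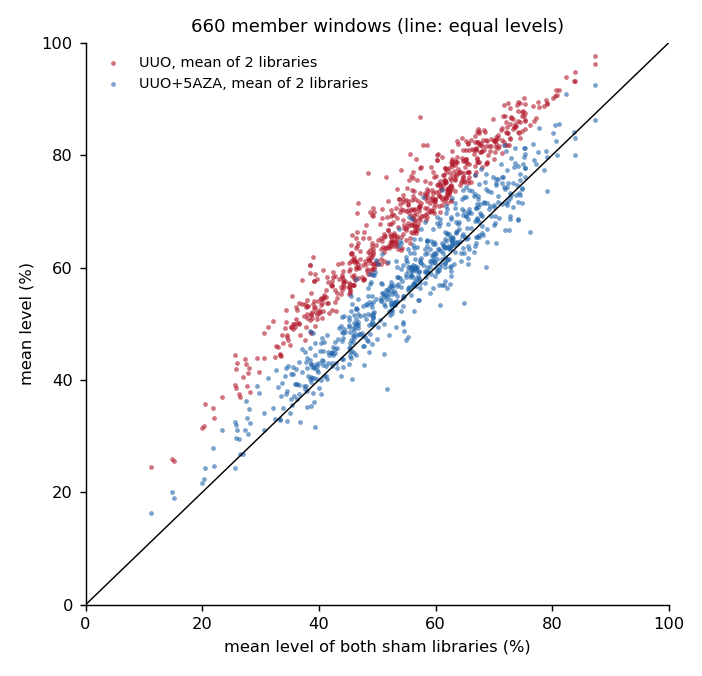
Mean level of the 2 UUO libraries (red) and of the 2 UUO 5AZA libraries (blue) in percent, against the mean of both shams in percent, for the 660 windows; the line marks equal levels. Red points lie above the line by construction, and blue points lie around and mostly just above it.

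Few single windows passed a test of 5AZA against UUO. A quasi-binomial model with limma-moderated dispersion over all 65728 windows, Benjamini-Hochberg adjusted, called 40 windows, all lower with 5AZA. A call needed 10 points or more between the group means, with an adjusted p under 0.05. Of these, 14 were members, so 2.12% of members were called against a background of 0.0609%, and members made up 35.0% of the calls. At an unadjusted p below 0.05 there were 553 members (83.8%), against 25.2% of all windows. Since the same UUO libraries chose the members, these counts describe them and are not independent support. With UUO replicate 1 left out, 2 members were among 8 called windows, and with UUO replicate 2 left out 3 among 13. Leaving out UUO 5AZA replicate 1 gave 145 members among 1363 called windows, and leaving out UUO 5AZA replicate 2 gave 40 among 149. edgeR's quasi-likelihood test called 9 members among 26 windows. With limma on log2 ratios 0 windows were called, while 495 members and 16068 of all windows had an unadjusted p below 0.05.

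For UUO against its single sham, the contrast the rule used, the same model called 2 windows higher after UUO, a background of 0.00304%, and 1 lower. Of the members, 0 were called, and 593 had an unadjusted p below 0.05, as had 5773 of all 65728 windows. edgeR's quasi-likelihood test called 0 members, with 571 members and 5312 windows below that level, and limma on log2 ratios called 0, with 535 members and 5612 windows. The rule chose members on this same contrast, so low unadjusted p-values among them were fixed by the choice and are no test of the gain.

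The member with the smallest adjusted p was chr10:79616001-79617000, with 14 CpG positions. Its level was 54.0% and 56.0% in UUO 1 and 2, against 36.9% in the UUO sham and 33.9% in the ischemia sham. It was 36.6% and 37.7% in ischemia at 1 week and 1 month, and 35.9% and 35.1% in UUO 5AZA 1 and 2. Both UUO libraries were apart and the other 6 lay within 4 points of each other. The 5AZA difference was -19.5 points (SE 1.69, adjusted p = 0.0140 by the limma-moderated quasi-binomial model). It was called under 10 of 12 settings, the exceptions being limma on log2 ratios and the fit without UUO replicate 2. Among the settings that called it, the fit of the UUO and 5AZA libraries alone repeats the main fit by construction. Another used sample number as a replicate block, which was not used as the result.

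All 14 positions of that window were higher in both UUO libraries than in both shams, with gaps of 5.83 to 22.2 points. The widest gap was at position 79616420, at 46.1% and 40.6% in UUO against 18.4% and 13.7% in the shams, from 49 to 76 reads per library, and 17.1% and 15.9% with 5AZA. At positions 79616381, 79616502 and 79616714 every library read high, with shams between 65.3% and 81.6%. The shams at the other 11 positions read between 9.80% and 33.3%. Read depth changed at 79616502 and 79616714, with 133 and 109 reads in UUO 1 against 72 and 62 at the positions before them. Depth changes mark fragment ends, where end repair can fill in methylated cytosine. Its share in these levels was not tested. Neighbouring positions with the same read counts were read by the same fragments and are not separate observations.

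Several other called members combined many positions with deep reads. The window chr19:7497001-7498000 had 58 CpG positions and at least 3130 reads in every library. Its level was 46.2% and 41.3% in UUO, 29.1% and 25.5% in the UUO and ischemia shams, 28.5% and 29.9% in ischemia at 1 week and 1 month, and 30.7% and 31.4% with 5AZA. The UUO libraries differed from each other by about 5 points, less than the distance of either from the remaining 6. In 51 of its 58 positions both UUO libraries exceeded both shams. The 5AZA difference was -12.6 points (SE 1.47, adjusted p = 0.0338 by the same model), called under 11 of 12 settings.

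At chr4:148326001-148327000, with 57 positions, UUO read 59.7% and 57.9%, the UUO and ischemia shams 49.1% and 47.9%, and ischemia 53.5% at 1 week and 49.0% at 1 month. With 5AZA it read 48.1% and 45.8%, a difference of -11.8 points (SE 1.10, adjusted p = 0.0167 by the same limma-moderated model). Here the 1-week library stood between the shams and UUO. At chr16:92606001-92607000, with 23 positions, UUO read 34.3% and 36.9%, the shams 22.7% and 18.4%, ischemia 25.2% and 26.4%, and 5AZA 24.9% and 23.6%. Both ischemia and both 5AZA libraries were above both shams there, and all 4 were below UUO.

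At chr2:32597001-32598000, also with 23 positions, UUO read 40.8% and 40.3%, the shams 28.1% and 25.8%, ischemia 26.2% and 28.7%, and 5AZA 28.1% and 25.4%. The other 6 libraries lay between 25.4% and 28.7%, all below UUO. At chr3:53281001-53282000, with 15 positions, UUO read 55.2% and 52.8%, the shams 40.6% and 37.6%, ischemia 43.6% and 43.7%, and 5AZA 36.8% and 35.2%. At chr17:47952001-47953000, with 10 positions, UUO read 67.9% and 70.4%, the shams 52.8% and 45.9%, ischemia 46.8% and 55.7%, and 5AZA 50.7% and 52.3%. In these windows 5AZA lay close to the shams. At chr10:80434001-80435000, with 8 positions, UUO read 56.8% and 58.5%, the shams 43.2% and 35.1%, ischemia 41.9% and 44.3%, and 5AZA 40.9% and 39.9%. Over the 14 called members the 5AZA difference ranged from -30.7 to -10.1 points and the adjusted p of the limma-moderated model from 0.0140 to 0.0462.

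The members with the widest gains over the shams were mostly short. The widest was chr2:71643001-71644000 with 5 CpG positions, at 78.6% and 74.9% in UUO, 54.7% in the UUO sham, 42.3% in the ischemia sham, 48.2% and 57.3% in ischemia at 1 week and 1 month, and 56.7% and 53.3% with 5AZA. Its exact 95% intervals were 69.4% to 79.9% in UUO 2 and 48.9% to 60.4% in the UUO sham. The shams differed from each other by more than 12 points there, so the gain of 20.2 points is taken over the higher one. The second, chr3:104467001-104468000 with 4 positions, read 88.9% and 84.6% in UUO, 64.5% and 50% in the shams, 63.7% and 62.2% in ischemia, and 65.1% and 64.8% with 5AZA.

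At chr13:12570001-12571000, with 8 positions, UUO read 76.0% and 66.9%, the shams 48.8% and 44.4%, ischemia 43.9% and 43.8%, and 5AZA 52.1% and 47.3%. UUO 1 rested on 146 reads there. At chr10:126518001-126519000, with 10 positions, UUO read 43.9% and 45.1%, the shams 24.6% and 26.8%, ischemia 27.9% and 28.5%, and 5AZA 34.8% and 30.3%. In this window the 5AZA libraries lay between the shams and UUO. With each position weighted equally the gap was narrower. UUO then read 34.3% and 40.6%, the UUO and ischemia shams 28.7% and 27.8%, and 5AZA 32.6% and 28.6%. The other 4 of the 8 widest gained 17.1 to 17.7 points. Among them, chr9:117659001-117660000 and chr16:96150001-96151000 had 5AZA libraries that disagreed, at 66.7% and 80.8% in the former and 71.6% and 50.9% in the latter.

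The members with the most CpG positions had low to middle levels. The longest, chr8:124860001-124861000 with 70 positions, read 53.9% and 54.5% in UUO, 42.2% and 33.9% in the shams, 41.0% and 46.7% in ischemia, and 38.5% and 49.4% with 5AZA. Its 5AZA libraries differed (SD 7.71) on 3844 and 4052 reads, and 51 of its 70 positions were higher in both UUO libraries than in both shams. From 526 to 560 bp into it, 6 positions read 0.0 to 25.0% in the shams on 16 and 18 reads, and 29.2 to 52.0% in UUO. Ischemia at 1 month read 40.0 to 46.7% at those positions on 30 reads, close to UUO.

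In chr17:12962001-12963000, with 54 positions, UUO read 40.3% and 37.6%, the shams 29.3% and 26.0%, ischemia 29.5% and 30.7%, and 5AZA 36.7% and 29.7%. Only 27 of its 54 positions were higher in both UUO libraries than in both shams. With each position weighted equally, UUO read 35.3% and 37.2%, the UUO and ischemia shams 31.4% and 22.6%, and 5AZA 37.7% and 29.8%. At 149 bp from its first base UUO read 15.0% and 15.3%, the shams 23.7% and 13.0%, and 5AZA 50% on 18 reads and 18.8% on 64 reads. The gain in this window did not extend over its whole length.

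At chr8:73121001-73122000, with 41 positions, UUO read 63.4% and 59.3%, the shams 50.1% and 47.2%, ischemia 48.2% and 53.9%, and 5AZA 52.7% and 47.0%. At chr7:25162001-25163000, with 32 positions, UUO read 36.5% and 37.3%, the shams 27.9% and 25.2%, ischemia 32.2% and 30.8%, and 5AZA 26.2% and 27.5%. At chr11:96207001-96208000, also with 32 positions, UUO read 37.3% and 37.7%, the shams 28.5% and 23.9%, ischemia 24.3% and 29.9%, and 5AZA 28.8% and 30.2%. In these windows both 5AZA libraries were close to the shams, and in the second both ischemia libraries lay between the shams and UUO.

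**Figure D4:**
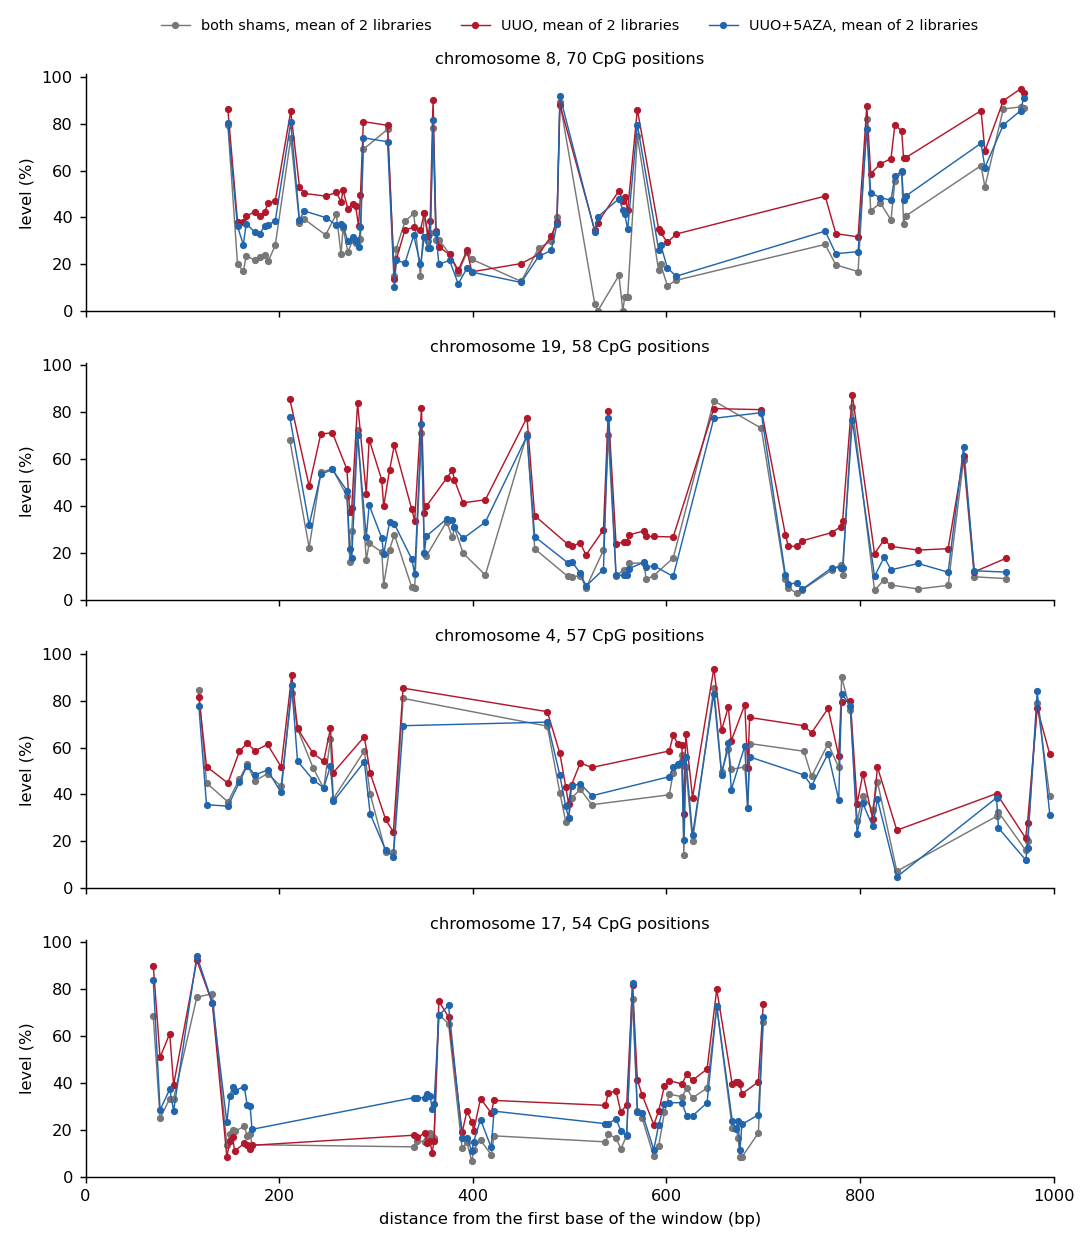
Methylation level in percent (vertical axis) at each CpG position against distance in bp from the first base of the window (horizontal axis), for the 4 members with the most positions; points are means of the 2 shams (grey), 2 UUO (red) and 2 UUO 5AZA (blue) libraries. Isolated positions near 70 to 90% in all 3 lines stand among lower ones. Some lie where read depth changes, as at 281, 347 and 540 bp in the chromosome 19 window. In the chromosome 17 window the blue line is the highest over part of the length.

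The difference between 5AZA and UUO ranged widely among members. The most negative was at chr9:114625001-114626000 with 5 positions, at 67.5% and 70.5% in UUO, 52.9% and 50.5% in the shams, 39.7% and 52.8% in ischemia at 1 week and 1 month, and 36.8% and 39.8% with 5AZA. Its difference was -30.7 points (SE 3.06, adjusted p = 0.0277 by the limma-moderated model), and both 5AZA libraries and the 1-week library were more than 10 points under the shams. At chr4:136256001-136257000 UUO read 70.5% and 71.8%, the shams 54.9% and 55.8%, ischemia 47.4% and 60.7%, and 5AZA 49.0% and 46.1%. At chr2:168835001-168836000 UUO read 73.0% and 65.8%, the shams 52.8% and 45.4%, ischemia 51.0% and 53.8%, and 5AZA 43.9% and 49.0%.

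At the other end, 1 member had a higher mean with 5AZA than in UUO. This was chr8:122349001-122350000 with 3 positions, at 60.3% and 61.1% in UUO, 51.7% and 47.9% in the shams, 47.9% and 53.8% in ischemia, and 62.4% and 60.2% with 5AZA, on 133 to 286 reads. The difference was 0.56 points (SE 4.004), within its own error. At chr5:115577001-115578000 UUO read 70.8% and 74.0%, the shams 62.3% and 61.4%, ischemia 60.7% and 64.8%, and 5AZA 70.8% and 71.2%. At chr8:126030001-126031000 UUO read 94.9% and 92.9%, the shams 79.9% and 84.8%, ischemia 87.9% and 89.5%, and 5AZA 91.0% and 90.9%. In these members 5AZA stayed near the UUO level, and in the last all 6 injured libraries were above both shams.

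The members shared a middle level and a small number of positions. In the UUO sham, 356 of them (53.9%) lay at 50 to 70%, a range that held 9.27% of all windows. Another 183 (27.7%) lay at 30 to 50%, against 8.68% of all windows. There were 25 (3.79%) at 10 to 30%, against 29.0%, and 96 (14.5%) at 70 to 90%, against 21.3%. None lay below 10% or at 90% or more, where 0.99% and 30.8% of all windows were. The rule bears on the high end, since a gain of 8 points is not possible near the top of the scale. The low share at 10 to 30% is not covered by that, and its cause was not tested. The median member had 5 CpG positions over 157 bp, against 6 positions over 195 bp for all windows. Windows with 20 or more positions made up 3.48% of members and 17.2% of all windows.

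**Figure D5:**
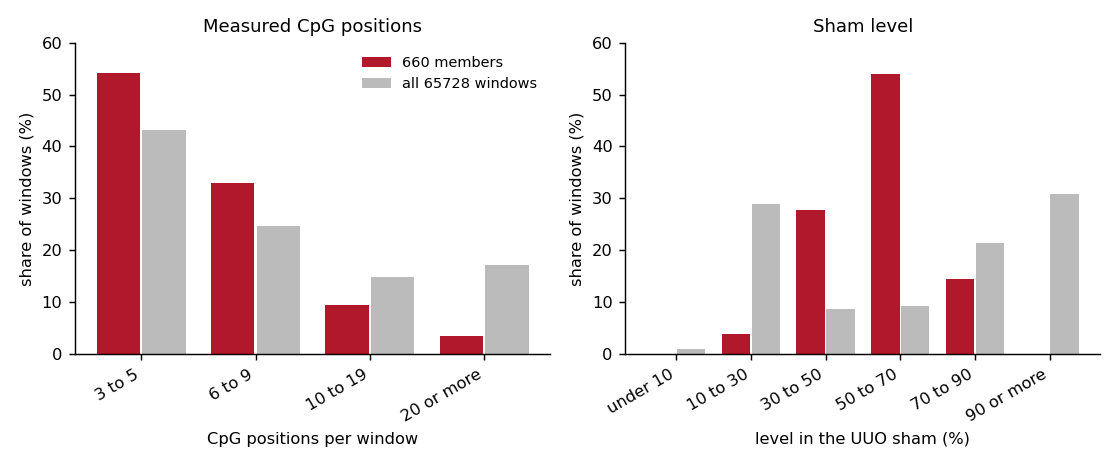
Share of windows in percent (vertical axes) by number of measured CpG positions (left) and by level in the UUO sham (right), for the 660 members (red) and all 65728 windows (grey). Members concentrate at 3 to 9 positions and at 30 to 70%, with 53.9% of them at 50 to 70%.

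Within members the gain was spread over positions. Of their 4522 CpG positions, 3366 (74.4%) were higher in both UUO libraries than in both shams, against a background of 23.1% of 790303 positions, and 60 (1.33%) were lower in both, against 8.01%. The rule used the sum of these positions, so this describes how the sum was made up. All positions were higher in 140 members, and at least 50% of them in 630. In 1 member, chr5:64547001-64548000, no single position met this order although the window gained 8.41 points.

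Positions at the ends of fragments, located from changes in read depth, made up 61.0% of member positions and 53.2% of positions in all windows. Such positions can be filled in with methylated cytosine during end repair, which is done here with methylated dCTP per the labels' protocols. With them left out, 189 members could still be measured, and in all 189 the lower UUO library stayed above the higher sham. The levels inside fragments were lower throughout, at 51.5% and 50.7% in UUO, 34.9% and 32.8% in the shams, 35.6% and 39.1% in ischemia, and 37.4% and 36.3% with 5AZA. The distance between UUO and the shams was thus wider without the fragment ends than with them in the same 189 windows, where UUO read 62.9% and 62.4% and the shams 50.01% and 47.6%. By the rule itself, 95 of the 189 remained members. The positions inside fragments were part of the sums that chose these windows. The order and the distance between UUO and the shams are therefore partly set by the choice and are no check of the gain.

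CpG positions inside member windows that had fewer than 10 reads in some library were not used by the rule. There were 373 of them, in 132 members. Their mean level, each position weighted equally, was 64.3% and 63.4% in UUO, 55.4% and 55.7% in the shams, 55.6% and 59.7% in ischemia, and 54.8% and 52.8% with 5AZA. With reads pooled it was 57.2% and 59.4% in UUO, 52.4% and 53.8% in the shams, 51.9% and 56.9% in ischemia at 1 week and 1 month, and 51.7% and 51.4% with 5AZA. The 1-month ischemia library was thus almost level with UUO 1 when reads were pooled, and both 5AZA libraries were below the shams by either weighting. At such positions in all windows, pooled reads gave 32.1% and 34.0% in UUO against 33.4% in each sham, so UUO was not the higher pair there. Weighted equally, they gave 35.4% and 34.9% in UUO against 33.9% and 33.1% in the shams. Many of these positions lie on the same fragments as those used, so they are not independent of the choice.

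All 19 autosomes held members, from 0.617% of the measured windows on chromosome 19 to 1.31% on chromosome 4. The median distance to the nearest other member was 516000 bp, and 30 members had another within 10000 bp. Like figures for all windows were not computed. A measured window lay directly beside 153 members (23.2%), against 37.6% of all windows, and 10 members touched another member. Whether members lie closer together than other measured windows was not tested. The densest stretch was chr4:116976001-116991000, where 4 of 5 measured windows were members. Among them, chr4:116976001-116977000, with 34 positions, was the lowest member named, at 25.3% and 23.9% in UUO, 11.9% and 10.5% in the shams, 16.6% and 16.2% in ischemia, and 17.2% and 15.3% with 5AZA. The window beside it, chr4:116977001-116978000, read 35.4% and 34.6% in UUO, 24.6% and 19.1% in the shams, 21.9% and 23.2% in ischemia, and 30.5% and 25.2% with 5AZA.

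Besides that pair, 4 other pairs of members touched. They were chr4:132598001-132600000, chr8:124859001-124861000, chr8:125791001-125793000 and chr17:46420001-46422000. Within chr8:125791001-125793000, 5AZA read 53.2% and 53.4% in the first window and 72.9% and 67.9% in the second, while UUO read 73.4% and 75.4% and then 78.0% and 78.7%. Neighbours therefore did not always share the size of the 5AZA difference.

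Measured windows next to a member that were not members themselves numbered 156. They had passed the coverage minimums and failed the rule on levels, which bears on their means. Their mean was 67.5% and 67.4% in UUO, 64.3% and 62.7% in the shams, 62.4% and 64.2% in ischemia, and 62.5% and 61.9% with 5AZA. UUO was 3.16 points above the UUO sham in them, against 0.86 points over all windows. Both UUO libraries lay above both shams in 85 (54.5%), against 32.7% of all windows. In 7 of the 156 the gain reached 8 points, as it did in 1123 of all 65728 windows. Nothing is read from the larger difference of 12.8 points in the members, which the rule set. Fragments spanning a window border can be counted on both sides.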

How the data were processed

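RRBS of 8 kidney libraries was deposited as 1 table per library. For each CpG the authors deposited a count of reads, a count of methylated reads among them and the level as a rounded fraction, not normalized. Here the counts were used, and the fraction only to check them. Per the submitters' processing notes reads were aligned with Bowtie to mm9; its version, the methylation caller and any filter: not given in the sources used here.

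Positions with at least 10 reads in all 8 libraries (959366 on the autosomes) were grouped into windows of 1000 bp starting at base 1 of a chromosome, with methylated and total reads summed (Python 3.11.15, pandas 2.3.3, numpy 2.4.6, scipy 1.17.1, matplotlib 3.10.9). Groups came from the sample titles. Windows were tested with a quasi-binomial model over all 8 libraries in 6 groups, with dispersion moderated by limma 3.58.1 in R 4.3.3 (prior dispersion 1.38, 6.95 prior and 2 residual degrees of freedom) and two-sided p-values adjusted by Benjamini-Hochberg. The spread came from the UUO and UUO 5AZA pairs, with the single libraries taken to vary as these do. Calls needed an adjusted p below 0.05 and 10 points. The model was tested on simulated data. A position was an edge when depth changed by more than 10% to the next CpG within 250 bp holding at least 40 reads. It was also an edge when a side had no such CpG. For the change, absolute depth differences per library were summed and divided by the position's summed depth. Alternatives included edgeR 4.0.16, limma on log2 ratios (pseudocount 1), other read minimums and limits, a depth cap, edge positions left out and each replicate left out. No read minimum per window, a UUO library kept out of the rule, and a fit of the UUO and 5AZA libraries alone were added after seeing the data.

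Named windows are the 8 widest gains, the 8 with most positions, the extremes of the 5AZA difference, those nearest the limits, touching members and called members, some given as ranges. The members and lists were chosen with earlier results of these data known. Windows are given by mm9 coordinates, since the annotation at hand is of another build and was not used. Gene names and sequences were not analysed here.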

Additional observations from a re-analysis of the deposited data

Results flagged for a closer look

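In 29 members (4.39%) both UUO libraries lay above both shams and both ischemia libraries lay below both. Over all windows both ischemia libraries lay below both shams in 27.6%. The difference between the injuries was not tested. The rule fixed the UUO side and limited the ischemia side, so no opposite movement of the injuries is read from this count.

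A signal also appeared at CpG positions that the comparisons did not use. At the 373 positions of members with fewer than 10 reads in some library, the lower UUO library exceeded the higher sham by 7.70 points when positions were weighted equally. With their reads pooled it exceeded the higher sham by 3.38 points. These positions share fragments with those that chose the windows, and this was not tested.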

How the results depend on the processing

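The number of members followed the limits: 2100 with a gain of 5 points, 290 with 10, 330 with ischemia under 2 points above the higher sham, 1123 with no ischemia limit, 1153 against the ischemia sham alone, 239 without fragment-edge positions, and 1523 to 2061 with a UUO library left out. Of the 660, 559 were also members at 20 reads per position and 491 with equal weight per position. The mean of 5AZA minus UUO was -13.52 points without edge positions, -11.51 to -10.77 with a library left out of the mean, and -7.611 and -6.386 with the compared UUO library kept out of the rule. The share with both 5AZA libraries above the higher sham was 30.13% without edge positions, and 53.64% to 59.85% with only 1 5AZA library required.

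Member calls of 5AZA against UUO, 14 of 40 windows called, were 23 of 71 at 20 reads per position, 9 of 17 with a depth cap, 57 of 267 without edge positions, 93 of 362 without a read minimum per window, 9 of 26 with edgeR, 0 of 0 with limma on log2 ratios, and 2 to 145 with a library left out. Member calls of UUO against its sham were 0 of 3 windows called. They were 1 of 4 at 20 reads per position (602 members) and 17 of 74 without edge positions (239 members). They were 7 of 17 without the read minimum (929 members) and 76 of 197 with both shams as 1 group. The rule used this contrast, so these counts are no test of the gain. The cause of these changes was not tested. With sample number as a replicate block, 305 members were called for 5AZA among 1952 windows. The UUO and 5AZA libraries share only a sample number in the labels, and over the 2 pairs their deviations correlated at 0.127, so the block was not used as the result. With 2 libraries in a pair and 1 in the other groups, windows near 100 reads allow only wide intervals, and calls on single windows depend on few degrees of freedom.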
